A study of Mus musculus with 15 samples.

Results

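The 9 genes described here encode the enzyme that makes itaconate (*Acod1*) and 8 enzymes of the tricarboxylic acid (TCA) cycle or their relatives outside the mitochondrion (*Cs*, *Aco1*, *Idh3a*, *Idh1*, *Idh2*, *Ogdh*, *Fh1* and *Mdh2*). They were chosen by symbol for their function, with earlier results of these data known. All 9 were found among the 78317 gene identifiers of the count table, and all 9 were among the 16654 genes tested after a filter on low counts. RNA was sequenced from MH-S cells, a line of SV40-transformed mouse alveolar macrophages, in 5 groups of 3 wells after 24 h. The M0 group received medium only, the M1 group IFN-γ (20 ng/mL) together with LPS (1 µg/mL), and the M2 group IL-4 (20 ng/mL). The last 2 groups received microrods at 0.1 mg/mL, built from nanoparticles that were held together by alginate and layers of protamine and carboxymethyl chitosan. The nanoparticles were calcium phosphate in the CaP group (labelled CaP-Alg-Prot/CMC(3DL)) and silica in the SiO2 group (with the label SiO2-Alg-Prot/CMC(3DL)). Every well held the same passage of this 1 line and each microrod well its own particle batch, so that p-values measure the spread between wells and particle batches only.

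The TCA cycle joins acetyl groups to oxaloacetate to form citrate and returns oxaloacetate in a series of oxidations that feed the respiratory chain. In activated macrophages the cycle is known to be interrupted: cis-aconitate, the intermediate of the aconitase step, is drawn off by the enzyme encoded by *Acod1* (also called *Irg1*) and decarboxylated to itaconate. Itaconate is known to inhibit succinate dehydrogenase and to modify KEAP1, which releases the antioxidant factor NRF2, and LPS and interferons are classical inducers of *Acod1*. RNA levels report neither enzyme activity nor the amount of a metabolite.

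The libraries differed in depth, with totals from 8459643 to 68750050 counts, and no pair of libraries of a group agreed within counting noise (chi-square per gene between 6.91 and 135 in 15 pairs). Levels are given as CPM (counts scaled to a common library total with edgeR's TMM factors), with the SD over 3 libraries. The general macrophage markers *Cd68* (at least 677 CPM in each library), *Lyz2* (at least 322 CPM) and *Csf1r* (at least 61.0 CPM) were well measured. So were *Adgre1* (at least 27.4 CPM) and *Itgam* (at least 13.9 CPM), while *Mertk* never exceeded 0.501 CPM. Mean *Lyz2* was 1847 CPM in M0 and 368 CPM in M2, and mean *Csf1r* 165 CPM in M0 and 88.0 CPM in M1. Mean *Adgre1* was 61.8 CPM in M0, 296 CPM in M1 and 195 CPM in M2. Markers of lung-resident alveolar macrophages were low, with maxima over the 15 libraries of 0.478 CPM for *Siglecf*, 0.478 CPM for *Chil3*, 0.658 CPM for *Pparg* and 2.82 CPM for *Marco*, which rose in M1, while *Itgax* stood at 1.57–4.93 CPM. Of 11 markers of epithelial, stromal, endothelial and other blood cells, 7 never exceeded 3 counts in a library, among them *Epcam* with 0 in all 15, and the list summed to 0.348–1.17 CPM in M0 and 1.55–1.85 CPM in M1. The polarization markers followed the labels, with *Il1b* at a mean of 411 CPM in M1 against 1.07 CPM in M0 and *Arg1* at 1550 CPM in M2 against 11 CPM in M0. *Arg1*, a marker of M2, was also higher in M1 than in M0, at a mean of 21.6 CPM.

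The start of *Acod1* held a TATA box, which the windows of the other enzymes did not. RefSeq promoter windows of mouse build GRCm38.p6, which cover 250 bases before and 50 bases after each gene start, were at hand for 8 of the 9 genes (not for *Idh3a*). The counts were made on build GRCm39, and no position was converted between the builds. The windows were searched on both strands for exact matches only, so that sites differing by a letter were not counted. The motifs were the TATA box (TATAAA), the CCAAT box (CCAAT) and the interferon motifs ISRE core (GAAANNGAA) and GAS (TTCNNNGAA). The others were the NF-kB site (GGGRNWYYCC), AP-1 (TGACTCA or TGAGTCA), C/EBP (TTGCNNAA) and NRF1 (GCGCATGC). Here R is A or G, Y is C or T, W is A or T and N is any base. The 3 genes that rose in M1 against M0 are shown, as the 250 bases before the gene start on the plus strand, with matches in capitals (for *Ogdh*, the most upstream of its 6 windows).
Acod1, chr14:103046762-103047011: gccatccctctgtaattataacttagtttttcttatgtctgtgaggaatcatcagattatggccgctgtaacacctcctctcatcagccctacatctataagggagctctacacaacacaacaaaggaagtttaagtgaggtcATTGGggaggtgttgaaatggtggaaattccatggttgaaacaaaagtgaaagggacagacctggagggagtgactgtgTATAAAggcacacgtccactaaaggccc
Cs, chr10:128337477-128337726: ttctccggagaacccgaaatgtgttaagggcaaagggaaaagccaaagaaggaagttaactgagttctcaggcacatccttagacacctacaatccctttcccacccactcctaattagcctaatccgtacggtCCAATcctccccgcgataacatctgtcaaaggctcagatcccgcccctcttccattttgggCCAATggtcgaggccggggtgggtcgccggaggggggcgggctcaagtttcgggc
Ogdh, chr11:6291347-6291596: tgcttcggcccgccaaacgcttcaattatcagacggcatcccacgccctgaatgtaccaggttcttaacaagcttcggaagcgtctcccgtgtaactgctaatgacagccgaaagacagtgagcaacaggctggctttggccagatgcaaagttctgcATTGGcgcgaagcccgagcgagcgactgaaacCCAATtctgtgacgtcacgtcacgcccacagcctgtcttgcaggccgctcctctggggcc
The *Acod1* window held a TATA box at position -28 from the gene start and a CCAAT box at -107 on the other strand (ATTGG), whereas none of the 13 windows of the other 7 genes held a TATA box. In *Cs* the CCAAT boxes lay at -116 and -55, in *Ogdh* at -92 and -60, and 6 of the 8 genes held at least 1. The *Acod1* window was 47.0% G or C with 2 CpG, against 49.3–72.3% and 11–37 CpG in the other 13 windows. Among all 32851 windows, 13.6% held a TATA box and 37.4% a CCAAT box, the median G or C content was 52.7% and the median number of CpG was 7. No exact match to the ISRE core, GAS, NF-kB, AP-1, C/EBP or NRF1 motif was found in the *Acod1* window. Of all windows, 8.56%, 8.3%, 4.51%, 5.2%, 10.8% and 2.71% held these motifs, in that order. Of the *Ogdh* windows not shown, 1 held an NF-kB match at -135 from its start, and 2 that overlap each other held the same C/EBP and NRF1 matches. These matches are descriptions of letters in a window and say nothing about binding.

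Per length of transcript, the 9 genes spanned about 3 orders of magnitude in M0. *Mdh2*, the mitochondrial malate dehydrogenase, stood at 1389 ± 139 CPM per kilobase of transcript (SD, n = 3), and *Idh2*, the mitochondrial NADP-dependent isocitrate dehydrogenase, at 147 ± 33.3. *Fh1* (fumarase, 65.9 ± 8.68) and *Idh3a* (catalytic subunit of the NAD-dependent isocitrate dehydrogenase of the cycle, 64.1 ± 13.2) followed and did not differ beyond their spread, nor did *Cs* (citrate synthase, 30.2 ± 2.07) and *Idh1* (the cytosolic and peroxisomal NADP-dependent isocitrate dehydrogenase, 27.8 ± 4.03). *Ogdh*, which encodes the dehydrogenase component of the 2-oxoglutarate dehydrogenase complex, lay at 8.52 ± 0.384 CPM per kilobase. At the bottom were *Aco1*, the cytosolic aconitase that doubles as iron regulatory protein, with 2.02 ± 0.459, and *Acod1* with 1.15 ± 0.383 CPM per kilobase, whose libraries overlapped.

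In M1 *Acod1* moved up in this order. It stood at 60.4 ± 9.93 CPM per kilobase (SD, n = 3), beside *Cs* at 60.6 ± 8.38 and *Fh1* at 62.3 ± 4.00, from which it did not differ beyond the spread. In M2 it remained the lowest of the 9 at 0.676 ± 0.143 CPM per kilobase. In the CaP group (2.61 ± 0.375) and the SiO2 group (2.61 ± 0.617) its mean lay above that of *Aco1* (2.25 ± 0.901 and 2.26 ± 0.514), with libraries that overlapped.

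**Figure D1:**
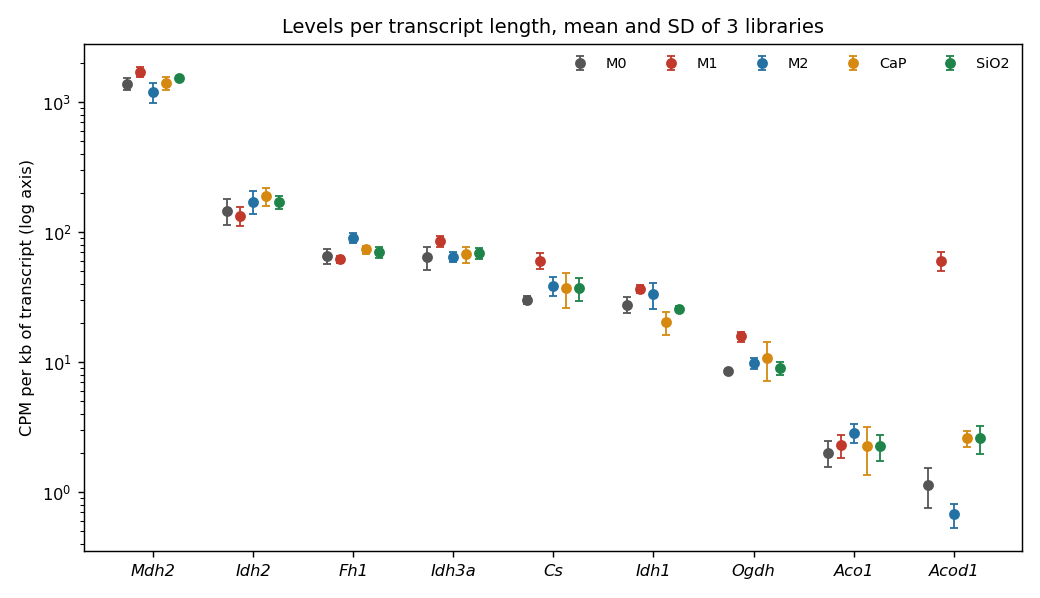
CPM per kilobase of the longest protein-coding transcript (log axis) of the 9 genes, ordered by their level in M0; points are means and bars the SD of 3 libraries in each of the 5 groups. The M1 point of *Acod1* sits at 60.4, level with *Cs* and *Fh1*, while the other 4 groups lie between 0.676 and 2.61.

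The comparison of M1 with M0 asked how the classical activation stimulus changed these genes. *Acod1* was detected at a low level in M0, with 2.32, 4.16 and 2.55 CPM, which rest on 88, 64 and 22 counts. In M1 the 3 libraries held 129, 167 and 179 CPM. All M1 libraries lay far above all others of the series, and *Acod1* rose 53.2-fold (log2 fold change 5.73, SE 0.28, adjusted p = 1.36e-08 in edgeR's quasi-likelihood test with Benjamini-Hochberg adjustment over all genes tested). In RNA from whole wells, a change in the share of responding cells and a change in RNA per cell cannot be told apart. Genes are named as called, or as having risen or fallen, where the adjusted p was under 0.05 and the log2 fold change beyond 0.5 in size.

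Of the 9 genes, 3 rose in M1 (*Acod1*, *Cs* and *Ogdh*) and 0 fell, where 9.70% of all genes tested rose and 4.37% fell. At an unadjusted p under 0.05 edgeR gave 4 higher (*Idh3a* in addition) and 0 lower, and DESeq2 also called 3 higher and 0 lower. *Cs*, the entry enzyme of the cycle, stood at 83.0, 86.8 and 94.9 CPM in M0 and at 149, 187 and 195 CPM in M1. The groups did not overlap, and *Cs* rose 2.01-fold (log2 fold change 1.01, SE 0.23, adjusted p = 0.00928). *Csl*, a near-identical copy of *Cs* with which reads can be split, held 3–318 counts a library, at most 4.77% of those of *Cs*. *Ogdh* was at 33.4, 36.4 and 35.8 CPM in M0 and at 58.2, 68.9 and 68.3 CPM in M1. Again no library of one group reached the other, and *Ogdh* rose 1.85-fold (log2 fold change 0.89, SE 0.22, adjusted p = 0.015), a call that was lost by a small margin without M0 replicate 1 (adjusted p = 0.0571), M1 replicate 2 (0.057) or M1 replicate 3 (0.0535).

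The other 6 enzymes were not called in M1. *Idh1* stood at 68.3, 53.3 and 70.3 CPM in M0 and at 91.4, 80.3 and 82.1 CPM in M1. Its groups did not overlap, but with a log2 fold change of 0.40 (SE 0.20) its adjusted p was 0.2. *Mdh2* was at 1788, 2134 and 2145 CPM in M0 and at 2713, 2489 and 2258 CPM in M1, without overlap and with a log2 fold change of 0.30 (SE 0.15, adjusted p = 0.22). *Idh3a* (log2 fold change 0.41, adjusted p = 0.134), *Aco1* (0.21, 0.697), *Fh1* (-0.08, 0.731) and *Idh2* (-0.13, 0.697) had libraries that overlapped between the groups. The median log2 fold change was 0.40 over the 9 genes and -0.01 over all genes tested. Summed over the 8 genes other than *Acod1*, the level was 3236–3603 CPM in M1 against 2461–2994 CPM in M0, with *Mdh2* the main part of both.

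Other features of the M1 libraries moved as well. The share of counts from genes of the mitochondrial genome was 0.888–1.05% in M1 and 1.49–2.18% in M0, and 8 cell cycle genes summed to 1026–1164 CPM in M1 and 1207–1389 CPM in M0, with 1 of the 8 (*Top2a*) lower. Their part in the differences was not tested.

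**Figure D2:**
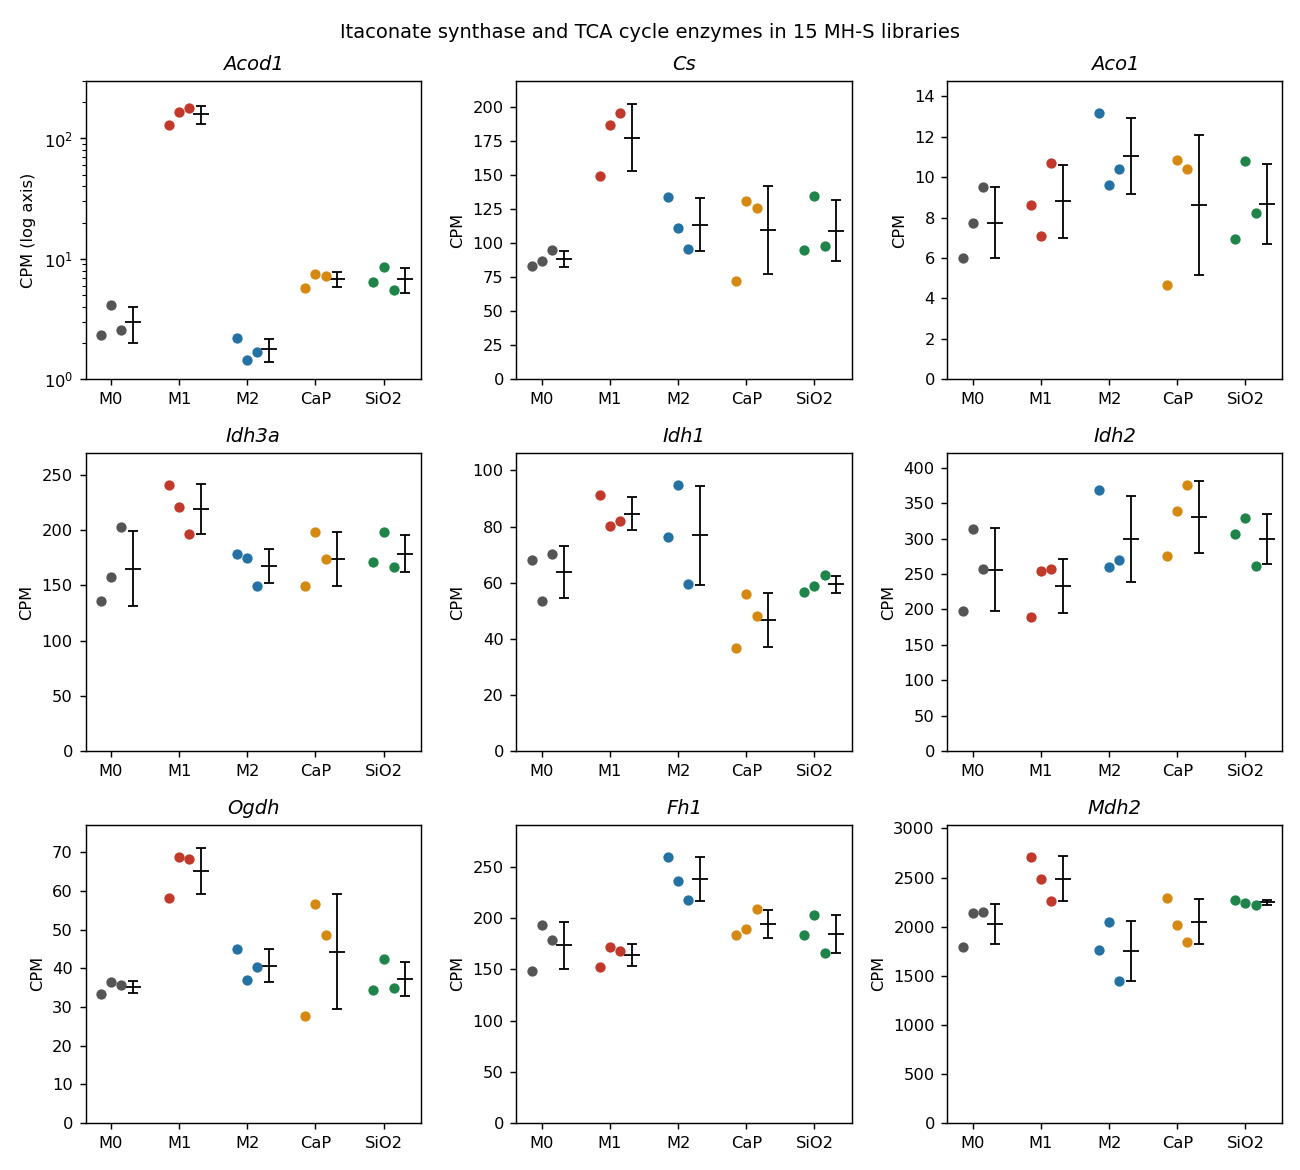
CPM of the 9 genes in each of the 15 libraries (points; *Acod1* on a log axis), with the mean and SD of the 3 libraries of a group as a black bar. M1 lies apart from M0 for *Acod1*, *Cs* and *Ogdh*. The first CaP library (36.6 CPM for *Idh1*, 27.7 CPM for *Ogdh*) lies below the other CaP libraries for each gene but *Mdh2*, where it is the highest.

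The comparison of M2 with M0 asked the same for the alternative stimulus. With IL-4, 0 of the 9 genes were called, where 2.00% of all genes rose and 2.13% fell. At an unadjusted p under 0.05 edgeR gave 2 of the 9, and DESeq2 called 0. *Acod1* stood at 2.18, 1.45 and 1.69 CPM in M2, below all 3 M0 libraries (log2 fold change -0.73, SE 0.30, unadjusted p = 0.0267, adjusted p = 0.212). *Fh1* stood at 260, 236 and 218 CPM in M2 and at 149, 194 and 179 CPM in M0. These groups did not overlap either, with a log2 fold change of 0.46 (SE 0.14, unadjusted p = 0.00659, adjusted p = 0.0983). Of the 9 estimates, 7 were above 0, with a median log2 fold change of 0.23 against 0.07 over all genes tested, and the remaining 7 genes had adjusted p-values of 0.411 or more. *Aco1* also lay above M0 without overlap, at 13.2, 9.61 and 10.4 CPM in M2 against 5.98, 7.74 and 9.50 CPM in M0 (log2 fold change 0.55, SE 0.32, adjusted p = 0.411). *Cs* (log2 fold change 0.36, adjusted p = 0.462) and *Ogdh* (0.21, 0.691) were higher in each M2 library than in any of M0, by little in the lowest.

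M1 and M2 were also compared directly. Of the 9 genes, 2 were higher in M1 (*Acod1* and *Mdh2*) and 1 was lower (*Fh1*), where 10.6% of all genes were higher and 5.46% lower. *Acod1* was 88.4-fold higher in M1 (log2 fold change 6.47, SE 0.30, adjusted p = 3.9e-09). *Fh1* stood at 152, 172 and 168 CPM in M1, below each of its M2 libraries, with a log2 fold change of -0.54 (SE 0.14, adjusted p = 0.0196). *Mdh2*, which acts on the product of fumarase, went the other way, from 1759, 2048 and 1443 CPM in M2 to a log2 fold change of 0.51 (SE 0.15, adjusted p = 0.0354). Both calls lay close to the fold threshold. That of *Fh1* was lost without M1 replicate 1 (log2 fold change -0.49, adjusted p = 0.0788), M1 replicate 3 (-0.56, 0.054) or M2 replicate 1 (-0.48, 0.0723). That of *Mdh2* was lost without M1 replicate 1 (0.44, 0.126), M1 replicate 2 (0.50, 0.0915), M2 replicate 1 (0.50, 0.0903) or M2 replicate 3 (0.38, 0.148). *Ogdh* (log2 fold change 0.68, adjusted p = 0.0501) and *Cs* (0.65, 0.0707) missed the threshold. DESeq2 called 3 of the 9 as well, with *Ogdh* (adjusted p = 0.0307) in place of *Mdh2*, whose log2 fold change there was 0.48 (adjusted p = 0.0278).

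**Figure D3:**
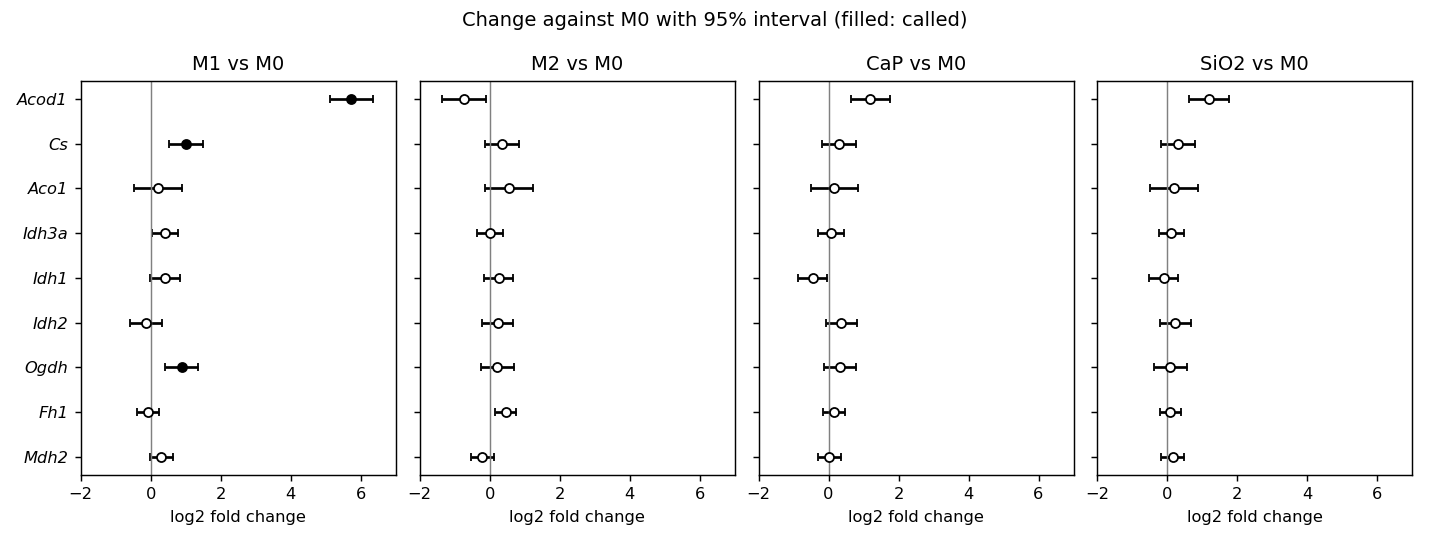
Log2 fold change of the 9 genes against M0 with its 95% interval from edgeR's quasi-likelihood model, in 4 comparisons that share the M0 libraries; filled points are called. In M1, *Acod1* lies at 5.73, *Cs* at 1.01 and *Ogdh* at 0.89, and no point of the other 3 comparisons is filled.

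The microrod comparisons asked whether the particles alone changed these genes. Against M0, 0 of the 9 genes were called in the CaP group, where 0.654% of all genes were called in either direction, and 0 in the SiO2 group, where 0.264% were called. At an unadjusted p under 0.05 edgeR gave 2 of the 9 for CaP (*Acod1* and *Idh1*) and 1 for SiO2 (*Acod1*), and DESeq2 called 1 of the 9 in each, *Acod1*. Its levels were 5.72, 7.56 and 7.25 CPM with CaP and 6.41, 8.62 and 5.47 CPM with SiO2. All 6 microrod libraries lay above the 3 M0 libraries and far below the M1 libraries. The share of counts from the mitochondrial genome was 1.13–1.37% with SiO2 and 1.21–1.51% with CaP, against 1.49–2.18% in M0, and of the 8 cell cycle genes DESeq2 called *Mki67* and *Top2a* lower with CaP (edgeR 0, with 2 at an unadjusted p under 0.05 for each material). Their part in the *Acod1* levels was not tested.

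For *Acod1* the level with CaP was 2.29-fold that of M0 (log2 fold change 1.19, SE 0.26, 95% interval 0.63 to 1.75), with an unadjusted p of 0.000464 and an adjusted p of 0.0576. With SiO2 it was 2.27-fold (log2 fold change 1.18, SE 0.27), with an unadjusted p of 0.000571 and an adjusted p of 0.128. Under DESeq2 the adjusted p was 0.00291 for CaP and 0.00733 for SiO2, and over all alternatives it ranged from 0.00291 to 0.373 and from 0.00733 to 0.747. For CaP the gene was called without M0 replicate 2 (log2 fold change 1.5, adjusted p = 0.028) and without CaP replicate 1 (1.30, 0.0482). The estimate itself stayed between 0.95 and 1.5 in every alternative for CaP and between 0.95 and 1.49 for SiO2. Both comparisons use the same 3 M0 libraries, of which the smallest gave 22 counts of *Acod1*.

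Of the 8 other enzymes only *Mdh2* with SiO2 lay apart from M0 in every library, at 2274, 2245 and 2219 CPM, with a log2 fold change of 0.15 (SE 0.15, adjusted p = 0.872). How many of all genes tested lay apart in this way was not counted, so nothing is drawn from this separation. *Idh1* was at 36.6, 55.8 and 48.0 CPM with CaP, where 1 library reached into the M0 range (log2 fold change -0.45, SE 0.20, unadjusted p = 0.0371, adjusted p = 0.287). With SiO2 it was at 56.7, 58.7 and 62.8 CPM, within the M0 range. *Cs* stood at 72.3, 131 and 126 CPM and *Ogdh* at 27.7, 56.7 and 48.6 CPM with CaP, so that for both genes the first CaP library lay below M0 and the other two above it. Without CaP replicate 1, the deepest of the group, the log2 fold change went from 0.33 to 0.56 for *Ogdh* (adjusted p = 0.0972), from 0.31 to 0.52 for *Cs* (adjusted p = 0.162) and from 0.17 to 0.47 for *Aco1* (adjusted p = 0.309). Of the 9 estimates, 8 were above 0 with CaP and 8 with SiO2, with medians of 0.17 and 0.15 against 0.06 and -0.02 over all genes tested.

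The 2 particle materials were compared at the same mass concentration and time. The paper states that the materials differ in density, so that equal mass does not mean equal numbers of microrods. Material and number of microrods cannot be told apart here. Between CaP and SiO2, 0 of the 9 genes were called, where 0.0180% of all genes were, and 0 had an unadjusted p under 0.05 in edgeR or a call in DESeq2. For *Acod1* the difference in log2 level was 0.01 with a 95% interval from -0.51 to 0.53. The estimate farthest from 0 was that of *Idh1* at -0.35, with an interval from -0.77 to 0.07 and libraries that did not overlap. Over the 9 genes the bounds of these intervals lay between -0.77 and 0.71, so differences of up to that size are not excluded.

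*Idh2*, *Idh3a* and *Aco1*, like *Idh1*, were called in none of the comparisons by edgeR. *Idh2* held 198, 314 and 258 CPM in M0, 189, 254 and 257 CPM in M1 and 369, 260 and 270 CPM in M2, with CaP at 275, 338 and 376 CPM and SiO2 at 307, 330 and 261 CPM. The M0 range overlapped each of the other 4 groups. *Idh3a* held 136, 157 and 203 CPM in M0 and 241, 221 and 196 CPM in M1, where the lowest M1 library lay below the highest of M0. Between M1 and M2 the libraries of *Idh2* (log2 fold change -0.36, SE 0.21, adjusted p = 0.259) and of *Idh3a* (0.39, SE 0.17, unadjusted p = 0.0393, adjusted p = 0.146) did not overlap. *Aco1* was the least abundant cycle-related gene of the 9, with 4.66, 10.9 and 10.4 CPM with CaP and 6.95, 10.8 and 8.24 CPM with SiO2, both around the M0 values.

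Ratios of a pair of enzymes within each library do not depend on how libraries are scaled. They were compared with M0 by an exact two-sided permutation test of 3 against 3 libraries, which cannot give a p below 0.1, and 5 pairs were compared in 4 groups. *Fh1* to *Mdh2*, successive steps of the cycle, had log2 ratios of counts of -3.59, -3.46 and -3.58 in M0, -4.16, -3.86 and -3.75 in M1 and -2.76, -3.12 and -2.73 in M2. Here M1 lay below M0 and M2 above it without overlap, with differences of -0.38 and 0.68 (exact permutation p = 0.1 for each). *Aco1* to *Cs* differed from M0 by -0.81 in M1, from a mean of -3.53 in M0 to -4.34, also without overlap (exact permutation p = 0.1). *Ogdh* to *Mdh2* differed by 0.59 in M1 (exact permutation p = 0.1).

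Among the isocitrate dehydrogenases the CaP group stood apart in 1 ratio. *Idh1* to *Idh3a*, the cytosolic against the NAD-dependent enzyme, was -2.03, -1.83 and -1.86 with CaP on the log2 scale, against -0.99, -1.56 and -1.53 in M0. All 3 CaP libraries lay below all 12 others, and the difference from M0 was -0.55 (exact permutation p = 0.1). With SiO2 the same ratio was -1.60, -1.75 and -1.41, overlapping M0 (difference -0.23, exact permutation p = 0.4). *Idh2* to *Idh3a* overlapped M0 in each of the 4 groups, with the difference of -0.55 in M1 the farthest from 0 (exact permutation p = 0.2). Since 20 ratios were tested and 0.1 is the smallest p each allows, none passes an adjustment.

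**Figure D4:**
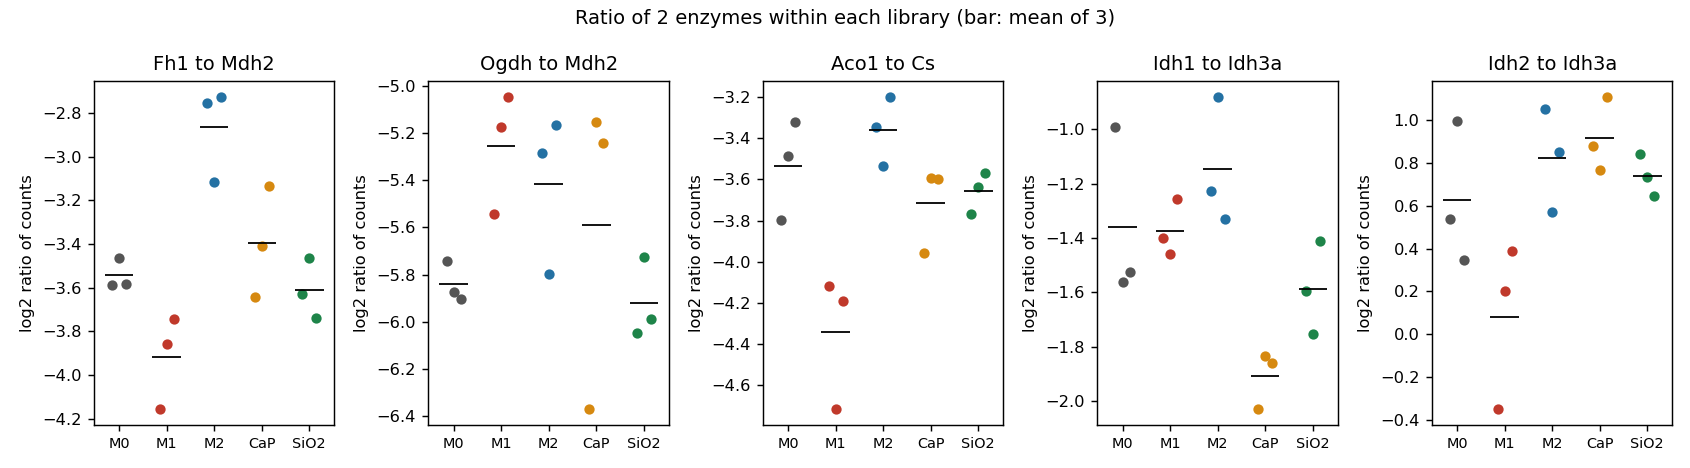
Log2 ratio of the counts of 2 enzymes in each of the 15 libraries, by group; bars are means of 3 libraries. For *Fh1* to *Mdh2*, M1 lies below and M2 above M0, and for *Idh1* to *Idh3a* the CaP libraries, between -2.03 and -1.83, lie below the rest.

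Across the 15 libraries the log2 levels of *Cs* and *Ogdh* moved most closely together among the 9 genes (Pearson r = 0.948), while *Fh1* ran against *Acod1* (r = -0.527) and *Mdh2* (r = -0.53). The 5 genes most like *Acod1* among 10338 with a mean of at least 5 CPM were *Nfkbia* (inhibitor of NF-kB, r = 0.981), *Ptgs2* (prostaglandin synthase, 0.979), *Traf1* (adaptor of TNF receptors, 0.978), *Akr1b8* (an aldo-keto reductase, 0.973) and *Ehd1* (endocytic recycling, 0.973). *Ptgs2* went from 0.229 ± 0.137 CPM in M0 to 40.5 ± 2.10 CPM in M1 (SD, n = 3), and with *Acod1* the M1 libraries carry these values. The 5 most like *Idh1* were *Stat5a* (r = 0.908), *Cd300ld* (0.908), *Arhgap19* (0.900), *Cpt1a* (0.894) and *Crybg1* (0.885). *Cpt1a*, the carnitine palmitoyltransferase that admits fatty acids to mitochondria, was at 6.08 ± 1.00 CPM in M0, 9.16 ± 0.767 in M1 and 3.97 ± 0.336 with CaP. The 15 points fall into 5 groups and were made from libraries of unequal depth, so these correlations describe the libraries only.

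Genes around the cycle were taken from 5 lists, written with earlier results of these data known, of which 52 genes were tested. Over all genes tested, 9.70% rose and 4.37% fell in M1 against M0. Of 13 other enzymes of the cycle 0 were called in M1 against M0, with 2 at an unadjusted p under 0.05 in edgeR and 1 called by DESeq2. That gene, *Dld*, the dehydrogenase shared by the pyruvate and 2-oxoglutarate complexes, had a log2 fold change of 0.54 in edgeR (adjusted p = 0.0552). The list's median was 0.03. Of 11 tested genes of pyruvate entry, 1 rose, *Pdha1* of the pyruvate dehydrogenase (log2 fold change 0.75, adjusted p = 0.0491), a call lost in 10 of 14 alternatives, with adjusted p up to 0.204 (without M0 replicate 1). It was also lost without M0 replicate 2 (0.101), M1 replicate 1 (0.0565), M1 replicate 2 (0.139) or M1 replicate 3 (0.15). At an unadjusted p under 0.05 edgeR gave 6 of the 11. DESeq2 called 3 of them, *Pdha1* higher and *Pdk1* and *Pdp1* lower. In edgeR *Pdk1* had a log2 fold change of -0.74 (adjusted p = 0.0576) and *Pdp1* of -1.08 (adjusted p = 0.0559).

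Of 13 tested genes of citrate export and the mitochondrial shuttles, 3 rose in M1 and 0 fell, where 9.70% of all genes tested rose and 4.37% fell. The list median was 0.45, DESeq2 called the same 3 genes, and 7 had an unadjusted p under 0.05 in edgeR. *Slc25a1*, the mitochondrial citrate carrier, rose from 48.4 to 117 CPM (log2 fold change 1.27, SE 0.36, adjusted p = 0.0318). *Me1*, the cytosolic malic enzyme, rose from 2.86 to 6.83 CPM (1.22, SE 0.24, adjusted p = 0.00344), and *Got1*, the cytosolic aspartate aminotransferase, from 48.7 to 89.0 CPM (0.87, SE 0.23, adjusted p = 0.0199). The call of *Slc25a1* was lost without M0 replicate 1 (adjusted p = 0.131), M0 replicate 3 (0.0682), M1 replicate 2 (0.107) or M1 replicate 3 (0.121), and that of *Got1* without the same 4 libraries (0.0905, 0.0573, 0.0785 and 0.0749). *Got1* was also lost with only the 6 libraries compared (0.0511), and *Me1* kept its call in 14 of 14 alternatives.

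Genes known to respond to itaconate or its derivatives rose in M1 for 6 of 12, and 0 fell (DESeq2 also 6 higher and 0 lower), with a list median of 0.74, where 9.70% of all genes tested rose. At an unadjusted p under 0.05 there were 9, of which *Nfe2l2* and *Gclc* were lower. *Nfkbiz*, which encodes the IκBζ protein that an itaconate derivative is known to repress, rose from 4.51 to 42.7 CPM (log2 fold change 3.22, SE 0.25, adjusted p = 1.21e-06). The NRF2-responsive cystine carrier *Slc7a11* (log2 fold change 1.91, adjusted p = 0.0176), the glutathione synthesis subunit *Gclm* (1.25, 0.0289) and the sulfiredoxin *Srxn1* (0.85, 0.00514) rose too, with *Txnrd1* and *Nqo1* making up the 6. *Gclc*, the catalytic subunit of the enzyme that *Gclm* belongs to, had a log2 fold change of -0.72 (adjusted p = 0.122), and *Nfe2l2*, the gene of NRF2 itself, of -0.39 (adjusted p = 0.144). The call of *Slc7a11* was lost without M0 replicate 1 (adjusted p = 0.0519) or M0 replicate 3 (0.057), and that of *Srxn1* without a filter on low counts (0.0822). That of *Gclm* was lost without M0 replicate 2 (0.102), M0 replicate 3 (0.0832), M1 replicate 1 (0.0841), M1 replicate 2 (0.0527) or M1 replicate 3 (0.0661). The M1 stimulus itself is known to act on many of these genes, and its direct part and that of itaconate cannot be told apart.

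The enzymes that break itaconate down were 0 of 3 called in M1 (0 at an unadjusted p under 0.05 and 0 by DESeq2), where 9.70% of all genes tested rose and 4.37% fell. In M2 against M0, *Auh*, an enzyme of leucine and itaconate breakdown in mitochondria, rose (log2 fold change 0.75, SE 0.16, adjusted p = 0.0195), a call lost without M0 replicate 1 (0.0919) or M0 replicate 2 (0.0661), without a filter (0.106) and with only the 6 libraries compared (0.313). Of the 12 itaconate-responsive genes, *Nfe2l2* (log2 fold change -1.11, adjusted p = 0.00192) and *Nfkbiz* (-1.62, 0.00512) fell with IL-4 and 0 rose. Over all genes tested, 2.13% fell and 2.00% rose. Both calls were lost with only the 6 libraries compared (0.134 and 0.157). At an unadjusted p under 0.05 edgeR gave 6 of the 12, and DESeq2 called 4, with *Txnrd1* lower and *Atf3* higher in addition. In the other 3 lists 0 of the 37 tested genes were called (5 at an unadjusted p under 0.05, DESeq2 0). With microrods 0 of the 52 genes were called for CaP and 0 for SiO2 in edgeR, where 0.654% and 0.264% of all genes tested were called. For CaP 14 had an unadjusted p under 0.05 and DESeq2 called 3 (*Got1*, *Hmox1* and *Atf3*), and for SiO2 these counts were 4 and 0.

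Between M1 and M2, 10 of the 52 genes were called, 7 higher and 3 lower in M1, where 10.6% of all genes tested were higher and 5.46% lower, with *Nqo1*, which stayed under 5 CPM, among them. *Me1* was higher in M1 (log2 fold change 2.04, adjusted p = 6.08e-05), as were *Nfkbiz* (4.84, 5.24e-08), *Txnrd1* (1.38, 7.49e-05), *Srxn1* (1.26, 0.000227) and *Nfe2l2* (0.71, 0.0109). *Auh* (-0.66, 0.0138) and *Clybl*, the citramalyl-CoA lyase of itaconate breakdown (-1.13, 0.0388), were lower in M1. *Pdk1*, a kinase that switches off pyruvate dehydrogenase, was lower as well (-0.85, 0.0288), and *Dld* was higher (0.55, 0.045). Without M2 replicate 2 the log2 fold change of *Clybl* was -0.61 (adjusted p = 0.0769), and the call was also lost without M1 replicate 2 (0.13) or M1 replicate 3 (0.133). The call of *Dld* was lost without each of the 6 libraries but M1 replicate 3 (adjusted p 0.0651 to 0.216, log2 fold change 0.35 without M1 replicate 1), and that of *Pdk1* without each but M2 replicate 2 (0.0619 to 0.0882). *Dld* also lost its call without a filter (0.304), with DESeq2 size factors (0.0515), with only the 6 libraries compared (0.194) and with thinned counts (0.0879). Thinned counts lost the call of *Pdk1* too (0.0556). That of *Auh* was lost without M1 replicate 2 (0.0558) or M1 replicate 3 (0.0572), and that of *Nfe2l2* without M2 replicate 3 (0.0586). Both were also lost without a filter on low counts (0.0842 and 0.0782), and with only the 6 libraries compared *Auh* (0.0983), *Nfe2l2* (0.0766) and *Clybl* (0.158) lost theirs.

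**Figure D5:**
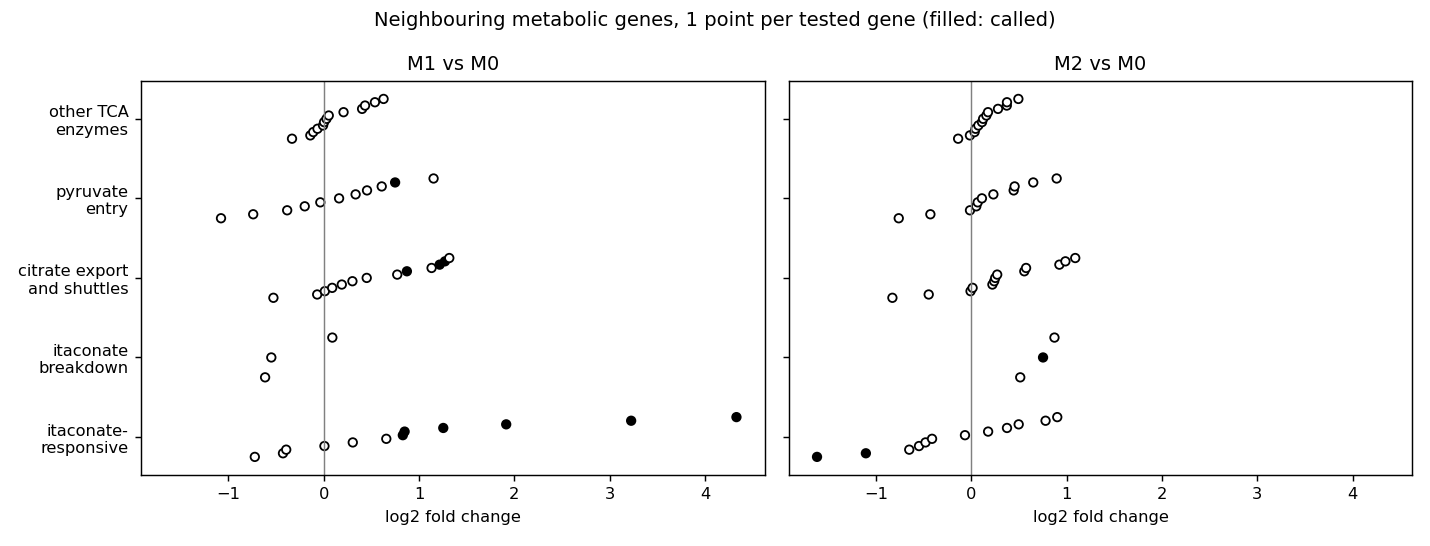
Log2 fold change in M1 and in M2 against M0 of the 52 tested genes of 5 lists around the cycle, 1 point a gene, filled where called. In M1 the filled points are *Pdha1* at 0.75, 3 genes of citrate export between 0.87 and 1.27, and 6 itaconate-responsive genes, all above 0.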

How the data were processed

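Smart-seq2 libraries of 15 wells (5 groups of 3) were measured. The authors aligned paired-end reads with STAR, quantified them with Salmon in the nf-core/rnaseq pipeline on the Ensembl annotation of GRCm39, and deposited whole-number counts per gene without normalization. Salmon estimates counts, so these may be rounded estimates in which reads of near-identical genes were split. All 15 columns were mapped by name to samples, and 0 were left unused. Symbols (51487 of 78317 identifiers) and transcript lengths came from an older GENCODE annotation of GRCm38.

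The members, lists and tests were chosen with earlier results of these data known. In R 4.3.3 with edgeR 4.0.16, genes were filtered with filterByExpr, scaled with TMM and compared in 1 quasi-likelihood model of all 15 libraries (its newer form, legacy = FALSE), with Benjamini-Hochberg adjustment over 16654 genes. Each SE is the log2 fold change divided by the root of F. Named genes are all 9 members, per list up to 4 called genes a direction with at least 5 CPM in a group, the 5 genes most like *Acod1* and *Idh1* over log2 CPM with a prior count of 2, and markers. *Dld*, *Pdk1*, *Pdp1* and *Nfe2l2* in M1, *Txnrd1* in M2, *Gclc*, *Hmox1* and *Atf3* were named after their values were seen. The procedure was tested on counts simulated for M1 against M0. Of 98 genes changed by 1 on the log2 scale, 9.18% were called in the right direction. Of 99 genes changed by 2, 46.5% were. Among the calls, 6.78% fell on unchanged genes. A gene that was not called is therefore not shown to be unchanged. Alternatives were DESeq2 1.42.0, its size factors, no filter, at least 10 counts in every library, a replicate block, other libraries in the model, thinned counts, each library left out and, added after seeing the data, the legacy quasi-likelihood. Same-numbered libraries of 2 groups deviated together in 14 of 30 pairs (correlation above 0.1, range -0.704 to 0.604). Libraries with different numbers did so in 24 of 60 pairs (range -0.66 to 0.729). The numbers were not taken as pairs in the main model. Totals ranged from 8459643 to 68750050 counts, and the spread between libraries of a group exceeded counting noise. *Acod1* outside M1 rests on few counts in the smaller libraries. Amplified cDNA was counted, so reads are not independent molecules.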

Additional observations from a re-analysis of the deposited data

How the results depend on the processing

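The rise of *Acod1* in M1, against M0 and against M2, and that of *Cs* against M0 kept their call in all 14 alternatives. The number of the 9 genes called with CaP against M0 went from 0 to 1 under 4 settings (no filter, a minimum of 10 counts a library, DESeq2 size factors, and DESeq2 itself), and was 0 to 1 when single libraries were left out. With SiO2 against M0 it went from 0 to 1 without a filter and with DESeq2. In each of these cases the gene was *Acod1*. For M1 against M2 it went from 3 to 1 without a filter and with only the 6 libraries compared, and was 1 to 3 with single libraries left out; for M1 against M0 the range was 2 to 3. The cause was not tested. Among the recomputed fold changes of the 9 genes, 718 kept direction and call, 16 lost and 11 gained a call, and 38 of uncalled genes changed sign. For the called genes of the other lists, 259 kept and 61 lost the call.

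With a replicate block, 3 of the 9 genes were called in M1 against M0, 3 in M1 against M2 and 0 in the other comparisons, as without it. Of the other genes named, *Pdha1* in M1 against M0 (adjusted p = 0.0539) and *Dld* (0.0797) and *Clybl* (0.063) in M1 against M2 lost their calls under the block. The number of all genes called went from 109 to 59 with CaP and from 44 to 19 with SiO2. Counts over all genes, and their range over the alternatives, also moved: M2 against M0 gave 687 and 98–1361, CaP against M0 109 and 7–968, SiO2 against M0 44 and 1–205, CaP against SiO2 3 and 2–104, M1 against M2 2679 and 1377–4407, and M1 against M0 2342 and 1511–3394. Without M2 replicate 2 the count was 1361 in M2 against M0 and 4270 in M1 against M2. The lowest number for each microrod group against M0 came from a model of only 6 libraries, which has fewer degrees of freedom.

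When single libraries were left out, the difference in log2 ratio from M0 was -0.65 to -0.36 for *Idh1* to *Idh3a* with CaP, and 0.61 to 0.80 for *Fh1* to *Mdh2* in M2. Depth limits *Acod1* most, with 11 counts in the smallest M2 value and 22 in the smallest M0 value. One cell passage and 3 wells a group bound what any p-value here covers.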
